A study of Caenorhabditis elegans with 12 samples.

Results

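The genes described here are those whose signal differed between control and spg-7 RNAi in Caenorhabditis elegans on average over worms with intact atfs-1 and worms mutant for it. A gene need not have passed the test in each genotype by itself. All 12 arrays of the series entered the comparison, the 6 arrays labelled spg-7 RNAi against the 6 labelled control RNAi, with genotype as a covariate, and 10385 genes were tested. The worms were wild type (strain background N2) or carried the atfs-1 allele tm4525 in the same background. Worms of each genotype were fed control or spg-7 RNAi bacteria, with 3 biological replicates per group. Cultures were synchronised by bleaching, grown in liquid and collected whole at L4, the last larval stage, so every value is an average over all tissues of many worms. A lower signal of a tissue's genes may come from fewer cells of that tissue or from less RNA per cell, which cannot be told apart here.

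Paraplegin, the product of spg-7, is a subunit of a protease in the inner mitochondrial membrane that removes damaged proteins and matures others. Loss of it is a standard way to stress mitochondria in the worm. ATFS-1 is a bZIP transcription factor that is imported into healthy mitochondria and degraded there, and that enters the nucleus and activates chaperone, protease and metabolic genes when import fails. Worms with damaged mitochondria are also known to raise genes of detoxification and pathogen defence, such as cytochrome P450 enzymes, which oxidise foreign compounds, and UDP-glucuronosyltransferases, which couple sugars to the products. The comparison asks which genes differed with RNAi when the genotype is held constant.

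Between the RNAi arms 699 genes differed at a Benjamini-Hochberg adjusted p under 0.05 in limma, 6.73% of those tested. Of these, 499 (4.81%) were higher and 200 (1.93%) were lower on arrays labelled spg-7 RNAi. The median change was 1.18 on the log2 scale (2.27-fold) among the genes called higher and -1.05 (2.07-fold) among those called lower, 330 and 106 genes passed 2-fold (3.18% and 1.02% of genes tested), and 26 and 3 passed 8-fold. The largest rises belonged to cytochrome P450 genes, tbb-6 (a beta-tubulin) and spg-7 itself. Respiratory chain, tricarboxylic acid cycle and ribosomal protein genes had no member called. The split depended on how the arrays were scaled. With the arrays scaled to the spiked hybridisation controls instead, the median of all genes moved from -0.05 to -0.56, and 116 genes were called higher and 1013 lower. That scaling shifts all genes alike, so the changes below are relative to the other genes on the array. Single arrays also moved the counts by more than 1.5 times. The rises numbered 310 without control replicate 2 of wild type, 323 and 317 without its spg-7 RNAi replicates 1 and 2, 329 without control replicate 1 of the mutant and 306 without its spg-7 RNAi replicate 2. The falls numbered 871, 67 and 84 without control replicates 1, 2 and 3 of wild type, and 114 and 108 without its spg-7 RNAi replicates 1 and 2. They numbered 80 and 93 without control replicates 1 and 2 of the mutant and 83 without its spg-7 RNAi replicate 2. Without spg-7 RNAi replicate 1 of the mutant the number of falls dropped by 96 from 200, and 351 genes were higher, which made up 77.1% of the calls instead of 71.4%.

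**Figure D1:**
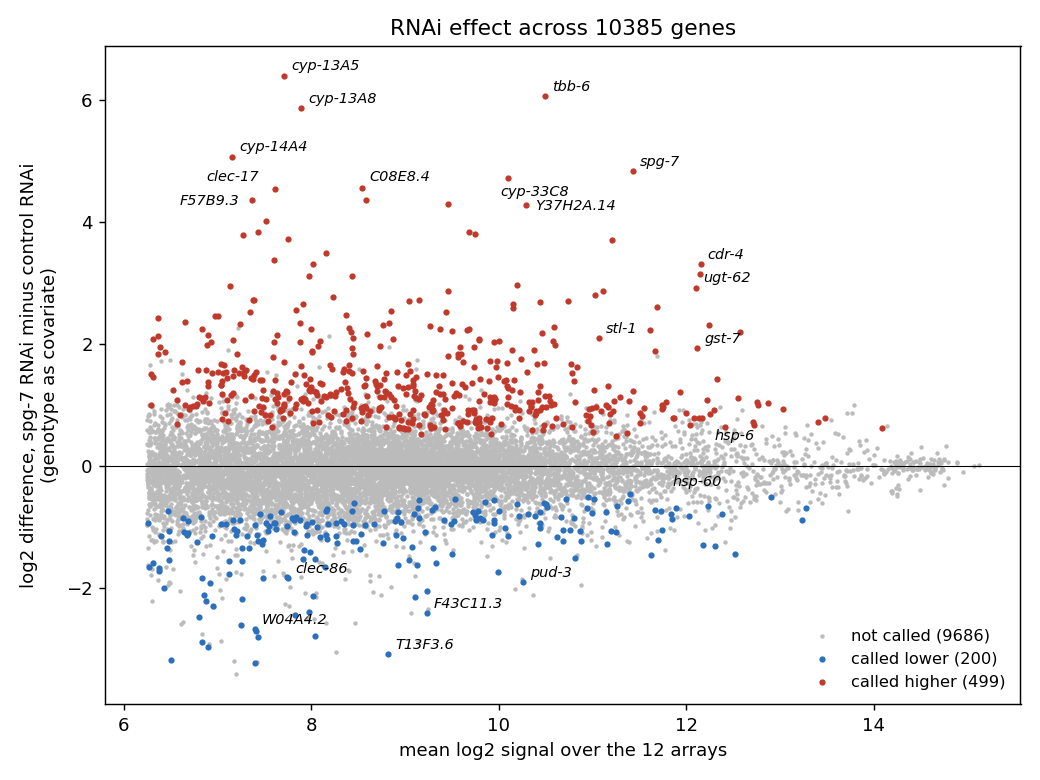
Change with spg-7 RNAi (log2 difference, genotype as covariate) against mean log2 signal over the 12 arrays, 1 point per gene. The 499 genes called higher (red) reach 6.39 for cyp-13A5, and the 200 called lower (blue) lie closer to 0 on the whole. Scaled to the hybridisation controls these counts were 116 and 1013.

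The arrays differed within groups, and measures of RNA integrity also differed between the RNAi arms. The median signal was 112 to 159 per array and the trimmed mean 500.1 to 500.2. The vitellogenins, yolk proteins made as worms reach adulthood, had a median log2 signal of 6.46 on control replicate 1 of wild type against 14.48 and 13.96 on the other 2, and oocyte and eggshell genes ranged from 8.28 to 12.36 over the 3 wild-type arrays of spg-7 RNAi. Without control replicate 1 of wild type and spg-7 RNAi replicate 3 of wild type together, 956 genes were called higher and 994 lower. The 3' to 5' log2 ratio of the actin control probe sets, a measure of RNA integrity, was 0.41 to 0.62 under control RNAi and 0.54 to 0.85 with spg-7 RNAi. Its mean difference of 0.24 gave p = 0.005 in an exact two-sided permutation test within genotypes, the smallest p that test allows, and 0.015 after adjustment over 3 measures. The glyceraldehyde-3-phosphate dehydrogenase ratio differed by -0.14 (exact p = 0.025, adjusted 0.0375). Of the calls, 171 higher and 63 lower were read through probe sets marked s or x, which can bind transcripts of related genes and whose values are uncertain to that extent. Those marked x among the genes described were sqst-1, gpd-3, mtl-2, sams-2, abu-6 and abu-15. The part of RNA integrity and of worm stage in the changes below was not tested, apart from the fit with the oocyte and eggshell level as a covariate, in which 773 genes were called higher and 556 lower, among them all 499 and 200.

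The targeted gene was the check of the labels, and its signal went against a knockdown. On control RNAi spg-7 had a signal of 747, 454 and 1057 in the 3 wild-type replicates and 385, 450 and 313 in the mutant. On the arrays labelled spg-7 RNAi it had 13442, 22348 and 7278 in wild type and 26208, 17698 and 9968 in the mutant. All 6 arrays labelled spg-7 RNAi lay above all 6 controls, and the log2 change was 4.83 ± 0.36 (SE, adjusted p = 6.26e-06), a 28.4-fold rise. The part of the transcript that the probe set reads, relative to the RNAi fragment, was not checked, so the knockdown cannot be read from it. Every direction in this text follows the labels of the arrays. Were the RNAi labels exchanged in both genotypes every sign would turn, and whether they were was not tested.

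The common reporters of mitochondrial protein stress, hsp-6 and hsp-60, did not pass the test over both genotypes with the signals as deposited. The mitochondrial Hsp70 gene hsp-6 had 4626, 2521 and 5082 in wild type under control RNAi and 7175, 5408 and 3791 with spg-7 RNAi, and in the mutant 4404, 4900 and 4786 and then 6168, 4824 and 5578. The groups overlapped, and the log2 difference was 0.33 ± 0.20 (adjusted p = 0.359), or -0.17 after scaling to the hybridisation controls. The chaperonin gene hsp-60 gave -0.41 ± 0.18 (adjusted p = 0.192). It passed as lower in other fits, with -0.92 after scaling to the hybridisation controls (adjusted p = 0.0249) and -0.47 with the oocyte and eggshell level as a covariate (adjusted p = 0.0396). For atfs-1 the difference was 0.71 ± 0.19 (adjusted p = 0.0413), 0.99 in wild type and 0.44 in the mutant. That call was kept without control replicate 1 of wild type, spg-7 RNAi replicate 2 of wild type or control replicate 1 of the mutant, was lost without any other array (adjusted p up to 0.0978), and was lost after scaling to the hybridisation controls (log2 0.21) and with no filter on low signal (adjusted p = 0.0544).

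Cytochrome P450 genes held 4 of the 6 largest rises. The array carried 73 of them, of which 41 passed the filter on low signal. In that family 14 genes were called higher (34.1%) and 1 lower (2.44%), against 4.81% and 1.93% of all genes. The median log2 change was 0.63 against -0.05 over all genes. After scaling to the hybridisation controls 10 were higher and 3 lower, with a median of 0.12. The filter used the mean over all arrays, so a gene dim under control RNAi passed it only if it was bright with spg-7 RNAi and so had to differ, and family counts here are descriptions.

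The P450 gene cyp-13A5 had a signal of 102, 24.0 and 25.3 in wild type under control RNAi against 1347, 5826 and 3593 with spg-7 RNAi, and 28.4, 5.53 and 14.9 against 816, 1724 and 1259 in the mutant. Every spg-7 RNAi array was above every control, the log2 change was 6.39 ± 0.50 (adjusted p = 8.63e-06), and it was 6.26 in wild type and 6.51 in the mutant. Control signals of this gene averaged below 76.0, the level of the filter, so its size rests on a weak baseline, and adding 32 to all signals before taking log2 gave 5.03. Its relative cyp-13A8 rose by 5.85 ± 0.49 (adjusted p = 1.56e-05), or 4.81 with 32 added, and cyp-13A6 by 2.45. The rise of cyp-33C8 started from a brighter baseline. Its signal was 208, 166 and 135 against 10478, 9332 and 6930 in wild type, and 233, 265 and 326 against 4203, 4857 and 2311 in the mutant, a log2 change of 4.72 ± 0.35 (adjusted p = 6.26e-06) and 4.52 with 32 added. For cyp-14A4 the change of 5.06 ± 0.63 (adjusted p = 3.82e-04) averaged 7.01 in wild type and 3.12 in the mutant. Control signals of this gene also averaged below the level of the filter, and its change was 3.97 with 32 added. Its wild-type signal went from 42.6, 19.2 and 27.9 to 2597, 5901 and 3204, and its mutant signal from 25.2, 30.5 and 13 to 149, 276 and 158.

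Calls in the P450 family were spread unevenly over its subfamilies, which were set side by side after their values were seen. Called higher were 3 of 5 measured cyp-13A genes, 3 of 4 cyp-14A genes and 4 of 6 cyp-33C genes, against 4.81% of all genes. Control signals of cyp-13A5, cyp-13A8 and cyp-14A4 averaged below the level of the filter. They passed it through the spg-7 RNAi arrays, so these counts are descriptions. None of 4 cyp-35A genes was called (median -0.50), and cyp-35C1 was lower on the spg-7 RNAi arrays, with 2130, 1962 and 2222 against 775, 313 and 205 in wild type and 1542, 2122 and 1371 against 933, 682 and 962 in the mutant. The groups did not overlap in either genotype, and the log2 change was -1.74 ± 0.35 (adjusted p = 0.0107).

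Conjugating enzymes and pumps, which act after the P450 step, had members among the rises. Of 45 UDP-glucuronosyltransferases measured (64 on the array) 10 were higher (22.2%) and 2 lower (4.44%), against 4.81% and 1.93% of all genes. Their median log2 change of 0.35 became -0.16, against -0.56 for all genes, after scaling to the hybridisation controls. The signal of ugt-19 was 165, 143 and 143 in wild type under control RNAi and 3462, 3301 and 3733 with spg-7 RNAi, and 251, 364 and 342 against 2604, 3782 and 2103 in the mutant, a change of 3.83 ± 0.26 (adjusted p = 4.25e-06). Those groups stood far apart in both genotypes. The rises of ugt-2 (3.80 ± 0.24), ugt-62 (2.92 ± 0.24) and ugt-21 (2.71 ± 0.19) were similar in kind, all with adjusted p under 0.05 in every fit without 1 array. The called falls in the family were ugt-31 (-1.52) and ugt-26 (-1.34).

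Glutathione S-transferases, which attach glutathione to reactive compounds, had 7 of 28 measured members higher (25%, against 4.81% of all genes) and none lower. Their median log2 change of 0.42 turned to -0.08 after scaling to the hybridisation controls (2 higher and 2 lower). The signal of gst-7 rose from 2673, 2266 and 2132 to 10929, 9879 and 8060 in wild type and from 2017, 2974 and 1783 to 7967, 8160 and 7454 in the mutant. These ranges did not overlap, and the change of 1.93 ± 0.15 (adjusted p = 9.78e-06) was 2.02 in wild type and 1.83 in the mutant. Of 39 ABC transporters, pumps for drugs and peptides, 6 were higher (15.4%) and 3 lower (7.69%, against 1.93% of all genes). Without control replicate 2 of wild type 3 were higher, and without control replicate 1 of wild type 8 were lower. After scaling to the hybridisation controls 1 was higher and 6 were lower, and the median of 0.28 became -0.22. The P-glycoprotein gene pgp-9 rose by 2.96 ± 0.30 (adjusted p = 8.27e-05), while pgp-5 fell by 1.71 on the log2 scale (SE 0.30, adjusted p = 0.00533).

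Of 11 genes measured in a list called metal-responsive here 5 were called, all higher (45.5%, against 4.81% of all genes). Their list had a median log2 change of 0.99. It was drawn up by gene name and held ttm-2 (called, log2 1.51), so not every member need respond to metals. After scaling to the hybridisation controls 3 were called higher, with a median of 0.48. The cadmium-responsive gene cdr-4 changed with the second smallest p of all genes. Its signal was 1677, 1512 and 1181 in wild type under control RNAi and 18567, 16455 and 12948 with spg-7 RNAi, and 1288, 1507 and 1602 against 14043, 14408 and 10755 in the mutant. The 6 spg-7 RNAi values thus lay several-fold above all 6 controls, and the log2 change was 3.30 ± 0.15 (adjusted p = 1.31e-07). Its relative cdr-2 rose by 3.15 ± 0.25 and the metallothionein gene mtl-1, whose product binds metal ions, by 3.37 ± 0.55 (adjusted p = 0.00329), from controls that averaged below the level of the filter (2.79 with 32 added). The second metallothionein gene, mtl-2, had 0.87 ± 0.30 (adjusted p = 0.11).

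The smallest p of all genes belonged to tbb-6. Its signal was 230, 171 and 217 under control RNAi and 10522, 17076 and 8568 with spg-7 RNAi in wild type, and 157, 134 and 171 against 9314, 18474 and 9942 in the mutant. The groups stood far apart in both genotypes, and the log2 change was 6.05 ± 0.22 (adjusted p = 1.50e-08), 5.82 in wild type and 6.29 in the mutant. No other tubulin gene of 13 measured was called, and the median of the family was -0.04, while 1 was called lower and the median was -0.55 after scaling to the hybridisation controls.

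Other genes among the 15 largest rises with separate groups in both genotypes were C08E8.4 (log2 4.55 ± 0.40), the C-type lectin gene clec-17 (4.54 ± 0.76), R08F11.4 (4.36 ± 0.43), F57B9.3 (4.36 ± 0.33), Y41C4A.32 (4.30 ± 0.41), Y37H2A.14 (4.27 ± 0.27), ZK177.9 (4.02 ± 0.25) and the claudin-like gene clc-11 (3.83 ± 0.28). Control signals averaged below the level of the filter for clec-17, F57B9.3, ZK177.9 and clc-11, whose changes were 3.61, 3.49, 3.30 and 3.13 with 32 added. All 15 kept their call in each of the 12 fits without 1 array and after scaling to the hybridisation controls. The stomatin-like gene stl-1 rose less, by 2.09 ± 0.16 (adjusted p = 8.63e-06), from 1036, 1301 and 907 to 5298, 5622 and 3862 in wild type and from 885, 979 and 1211 to 4295, 4614 and 3347 in the mutant. Its groups did not overlap in either genotype.

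**Figure D2:**
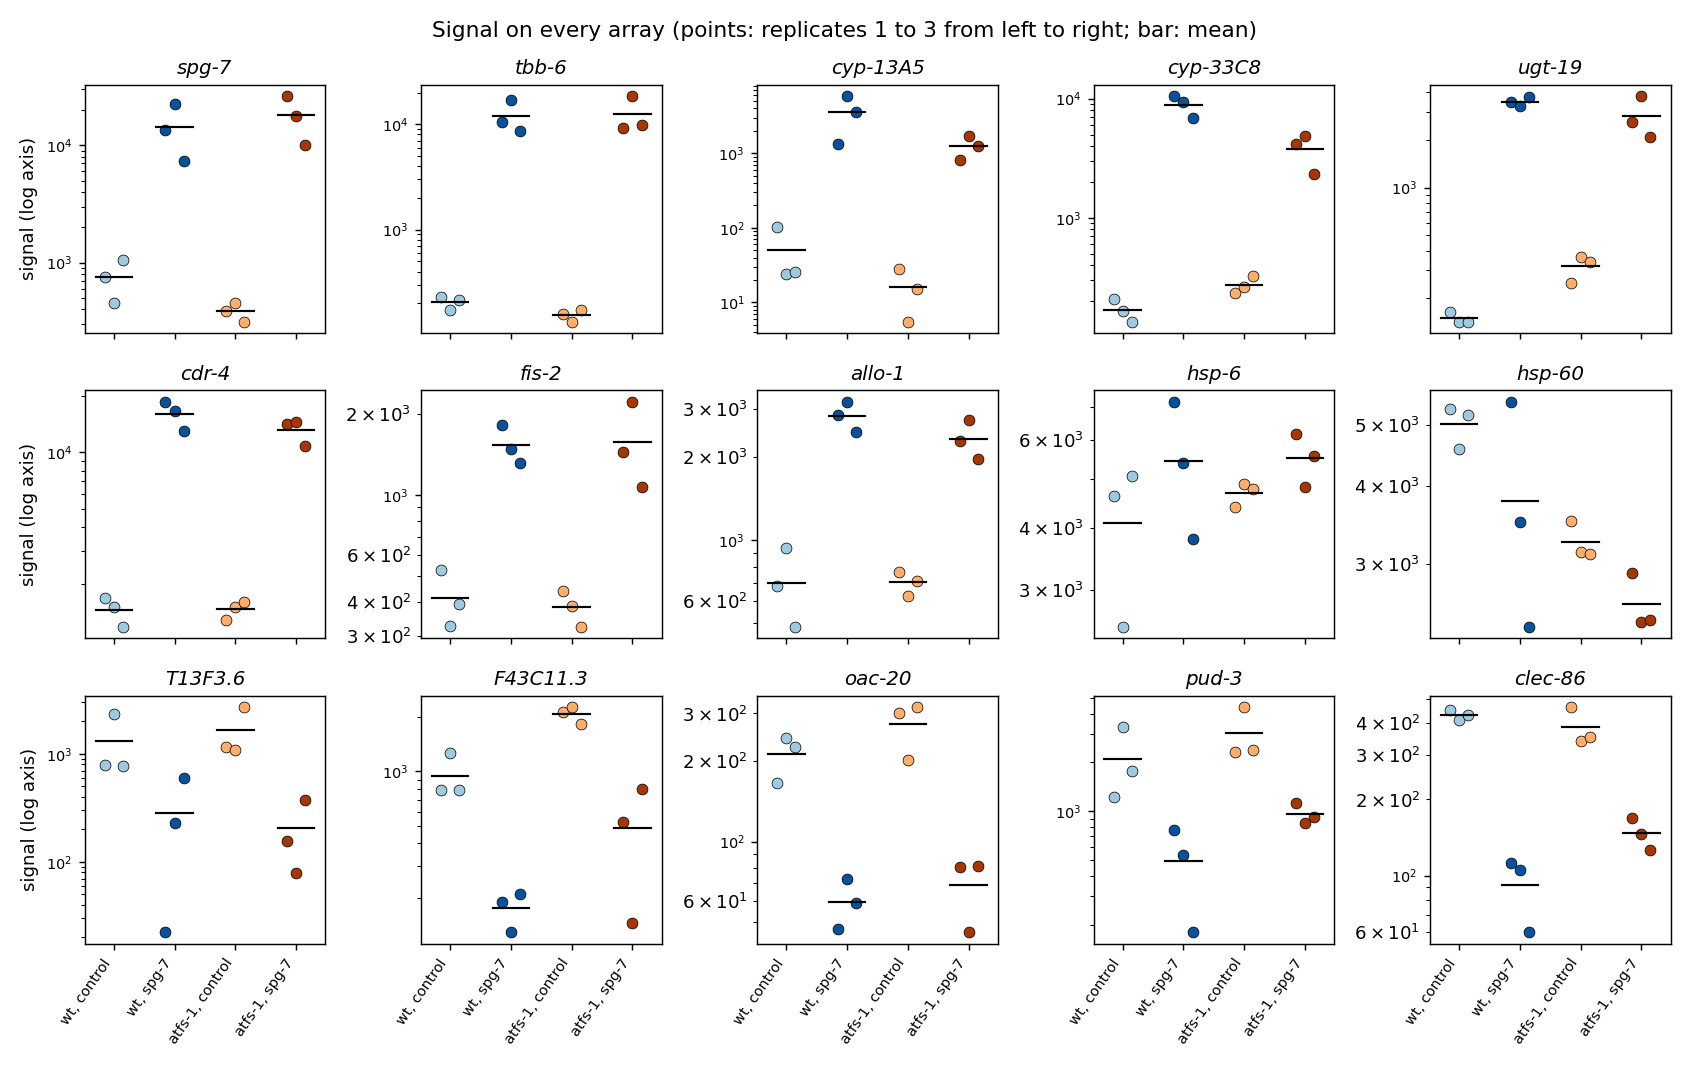
Signal on every array (log axis) for 15 genes in the 4 groups of 3 arrays, with points for replicates and bars for means. For tbb-6, cyp-13A5, cyp-33C8, ugt-19, cdr-4, fis-2 and allo-1 every spg-7 RNAi array lies above every control array, as for spg-7, while hsp-6 overlaps in both genotypes and hsp-60 in wild type. Scaled to the hybridisation controls, the difference of hsp-6 changed sign.

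Genes for mitochondrial fission were among the rises. Of 13 genes of mitochondrial fission, fusion and transport 4 were higher (30.8%, against 4.81% of all genes) and none lower. Their median log2 change of 0.18 became -0.32 after scaling to the hybridisation controls, where 1 stayed called. The 4 called higher were fis-2 (an orthologue of Fis1, an outer membrane fission protein), mff-2 (an orthologue of mitochondrial fission factor), mtp-18 (an orthologue of a fission-promoting inner membrane protein) and drp-1, the dynamin-related GTPase that divides mitochondria. The signal of fis-2 was 528, 326 and 394 under control RNAi and 1818, 1477 and 1315 with spg-7 RNAi in wild type, and 438, 387 and 323 against 1438, 2217 and 1071 in the mutant. All spg-7 RNAi arrays lay above all controls, and the log2 change was 1.94 ± 0.20 (adjusted p = 1.01e-04). The change was 2.04 ± 0.35 for mff-2 (adjusted p = 0.00412), 1.22 ± 0.18 for mtp-18 (0.00124) and 1.09 ± 0.22 for drp-1 (0.0104). By genotype mtp-18 gave 1.19 in wild type and 1.25 in the mutant. For mff-2 the change was 2.92 in wild type and 1.15 in the mutant, and for drp-1 it was 1.59 and 0.60, neither of them called in the mutant (adjusted p = 0.237 and 0.458). Neither difference between genotypes passed the test after adjustment (limma, unadjusted p = 0.0044 and 0.0152). The calls of mff-2, mtp-18 and drp-1 were lost after scaling to the hybridisation controls.

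Of 31 mitophagy and autophagy genes measured, whose products clear damaged mitochondria and other cargo, 8 were higher (25.8%, against 4.81% of all genes) and none lower. The median log2 change was 0.42, or -0.09 with 2 genes higher after scaling to the hybridisation controls, and 4 were higher without control replicate 2 of wild type. The signal of allo-1, an autophagy receptor for paternal mitochondria, went from 678, 938 and 483 to 2849, 3192 and 2466 in wild type and from 769, 624 and 712 to 2302, 2739 and 1974 in the mutant. Its groups were separate in both genotypes, and it rose by 1.90 ± 0.18 (adjusted p = 4.81e-05). The p62 orthologue sqst-1, a receptor for ubiquitinated cargo, rose by 1.88 ± 0.27 (adjusted p = 0.00124), and lgg-2, an LC3 family gene, by 0.83 ± 0.14 (adjusted p = 0.00452).

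Other mitochondrial groups held few called genes or none, where 4.81% of all genes were higher and 1.93% lower. Among 14 chaperones and proteases only spg-7 was higher (7.14%). Only trap-1, the mitochondrial Hsp90 gene, was lower (7.14%), by -0.65 ± 0.16 (adjusted p = 0.0292). The call of trap-1 was lost without control replicate 2 or 3 of wild type, spg-7 RNAi replicate 1 or 2 of wild type, or spg-7 RNAi replicate 3 of the mutant (adjusted p 0.0512 to 0.0699). No gene was called among 24 for mitochondrial protein import, where timm-23 had the largest difference (0.76 ± 0.24, adjusted p = 0.0735). The same held for 30 of the tricarboxylic acid cycle, 44 of the respiratory chain, 57 mitochondrial and 77 cytosolic ribosomal proteins and 33 proteasome subunits, whose medians lay between -0.15 and -0.02 (-0.07 to 0.05 with arrays centred). Scaled to the hybridisation controls, those medians were -0.65 to -0.53 beside -0.56 over all genes, and 41 of the 77 cytosolic ribosomal protein genes were called lower. Of 16 glycolysis genes 2 were higher (12.5%), the aldolase gene aldo-1 with 0.99 ± 0.18 (adjusted p = 0.00601) and gpd-3 with 0.63 ± 0.17 (adjusted p = 0.0449). Leaving out 1 array ended the call of gpd-3 for 9 of the 12 arrays. It also ended after scaling to the hybridisation controls, with no filter, with no variance trend, and with 1 mean per group. The glycolysis count was 1 without control replicate 2 of wild type and 5 without spg-7 RNAi replicate 3 of wild type. After scaling to the hybridisation controls the call of aldo-1 was lost as well (log2 0.49). None of the 16 was then higher and 1 was lower, with a median of -0.25.

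**Figure D3:**
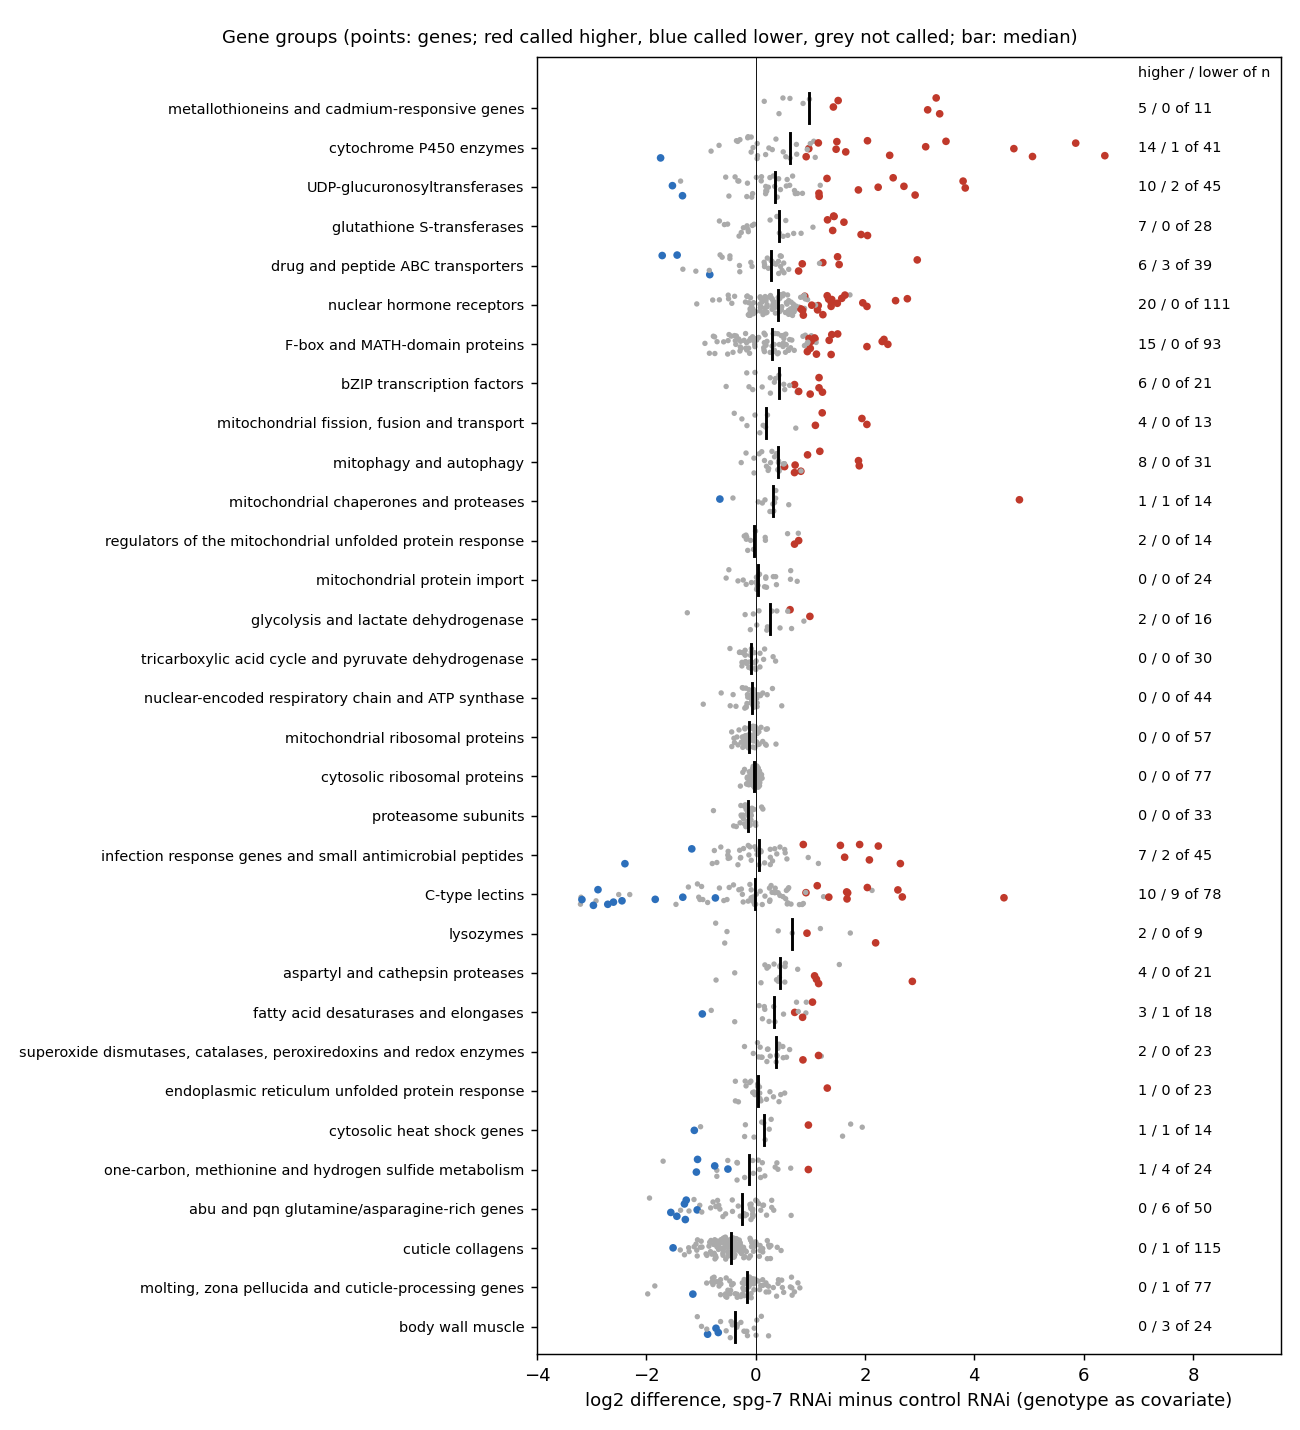
Log2 difference (spg-7 RNAi minus control RNAi) of each measured gene by gene group, with the median as a bar and the counts called at the right. Rises lead in the metal-responsive genes (5 of 11), P450 enzymes (14 of 41) and glucuronosyltransferases (10 of 45), and ribosomal and respiratory chain genes lie near 0. After scaling to the hybridisation controls the median of all genes was -0.56, and the glucuronosyltransferase median was below 0.

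Transcription factors were among the genes called higher. Of 111 nuclear hormone receptors measured (255 on the array), a family of ligand-regulated factors that is much enlarged in the worm, 20 were higher (18%, against 4.81% of all genes) and none lower. The median log2 change was 0.41, or -0.09 with 4 higher and 2 lower after scaling to the hybridisation controls. The count of higher receptors was 13 without spg-7 RNAi replicate 2 of wild type and 31 without replicate 3. The largest change was that of nhr-210, from 92.1, 62.4 and 109 to 1028, 1018 and 491 in wild type and from 194, 173 and 111 to 901, 1074 and 483 in the mutant, a log2 rise of 2.78 ± 0.30 (adjusted p = 1.61e-04) with no overlap. The receptor gene nhr-115 rose by 2.56 ± 0.25 (adjusted p = 4.96e-05). Also called were nhr-8 (1.31 ± 0.27), known for its part in resistance to toxins, and nhr-57 (1.49 ± 0.24), a known target of the hypoxia factor HIF-1.

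Of 21 bZIP factors 6 were higher (28.6%, against 4.81% of all genes) and none lower, with a median of 0.43. Relative to the hybridisation controls none was called and the median was -0.08, and 3 were called without control replicate 2 of wild type. They were zip-10 (1.22 ± 0.19), the Jun orthologue jun-1 (1.16 ± 0.20), zip-5 (1.16 ± 0.22), zip-12 (1.00 ± 0.23), zip-3 (0.79 ± 0.20), whose product is reported to repress ATFS-1, and atfs-1. Leaving out 1 array ended the call of zip-3 for 8 of the 12 arrays (adjusted p up to 0.0796). It also ended with the replicate number as a block, where 5 bZIP factors were called higher. Of 93 genes for F-box and MATH-domain proteins measured (395 on the array), adaptors that choose targets for ubiquitin ligases, 15 were higher (16.1%) and none lower (median 0.30). Relative to the hybridisation controls 4 were higher and 4 lower, with a median of -0.21. The gene fbxa-98 had between 63.3 and 144 on the 6 control arrays and between 262 and 552 on the 6 of spg-7 RNAi, and it rose by 2.04 ± 0.23 (adjusted p = 2.05e-04).

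Defence genes moved both ways. Of 78 C-type lectins measured (220 on the array), which bind sugars and include many secreted gut proteins, 10 were higher (12.8%) and 9 lower (11.5%). Over all genes 4.81% were higher and 1.93% lower. The median of the lectins was -0.01, or 0.06 with arrays centred. After scaling to the hybridisation controls 3 were higher and 15 lower, with a median of -0.52. Without control replicate 1 of wild type, 23 were lower, and without control replicate 2 of wild type, 2 were. On the rising side clec-265 went from 1131, 1431 and 1012 to 13944, 9532 and 6452 in wild type and from 1196, 1413 and 2080 to 7231, 9824 and 4750 in the mutant (2.60 ± 0.26, adjusted p = 7.01e-05), with separate groups. On the falling side clec-86 had 451, 413 and 432 against 112, 105 and 59.6 in wild type and 464, 341 and 354 against 169, 147 and 127 in the mutant (-1.84 ± 0.24, adjusted p = 5.21e-04), also without overlap. Of 45 infection response genes and antimicrobial peptides 7 were higher (15.6%) and 2 lower (4.44%), with 2 higher without control replicate 2 of wild type. Their median of 0.06 became -0.44 after scaling to the hybridisation controls. The lysozyme gene lys-2 rose by 2.20 ± 0.37 (adjusted p = 0.00363).

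Some genes of the gut's own proteases were also among the rises. The aspartyl protease gene asp-8 had 561, 560 and 523 against 9244, 8673 and 4235 in wild type and 1144, 2033 and 809 against 5347, 6815 and 3760 in the mutant, a log2 change of 2.87 ± 0.34 (adjusted p = 2.92e-04) between separate groups. Of 21 aspartyl and cathepsin proteases 4 were higher (19%) and none lower, and 2 were higher without control replicate 2 of wild type. Their median of 0.44 became -0.06 after scaling to the hybridisation controls. Shares called among genes of lipid handling lay on both sides of the 4.81% higher and 1.93% lower over all genes. The fatty acid and retinol binding gene far-3 rose by 3.70 ± 0.43 (adjusted p = 2.32e-04). It was the only gene called of 20 for lipid-binding proteins and lipases (5%). The delta-12 desaturase gene fat-2 rose by 1.04 ± 0.20 (adjusted p = 0.00859), a call lost after scaling to the hybridisation controls. Of 18 desaturases and elongases 3 were higher (16.7%) and 1 lower (5.56%). Without spg-7 RNAi replicate 3 of wild type 6 were higher, and without control replicate 2 of wild type 1 was. None was higher and 2 were lower after scaling to the hybridisation controls. Of 57 genes of beta-oxidation 1 was higher (1.75%) and none lower, with a median of -0.11. After scaling to the hybridisation controls none of these was higher and 5 were lower.

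The largest falls with separate groups in both genotypes were smaller than the largest rises. The gene T13F3.6 fell by 3.07 on the log2 scale (SE 0.69, adjusted p = 0.0199), from 794, 2352 and 780 to 22.2, 231 and 600 in wild type and from 1171, 1094 and 2722 to 156, 78.4 and 378 in the mutant. Its groups did not overlap within a genotype, but the call was lost without control replicate 2 of wild type (adjusted p = 0.0541) or spg-7 RNAi replicate 2 of the mutant (0.0538). The change of D2096.5, -2.47 ± 0.57 (adjusted p = 0.0237), was no longer called without control replicate 2 or 3 of wild type, control replicate 1 of the mutant or spg-7 RNAi replicate 2 of the mutant (adjusted p 0.055 to 0.0605). The other 10 of the 12 named falls kept their call in every fit without 1 array.

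The gene F43C11.3 had 788, 1273 and 788 under control RNAi and 191, 129 and 211 with spg-7 RNAi in wild type, and 2143, 2272 and 1823 against 529, 146 and 795 in the mutant. All spg-7 RNAi values of a genotype lay below its controls, and the log2 change was -2.41 ± 0.34 (adjusted p = 0.0012). The oac-20 gene, for an O-acyltransferase homologue, had 165, 244 and 226 against 47.2, 72.7 and 58.8 in wild type and 302, 200 and 317 against 80.7, 45.9 and 80.8 in the mutant (-1.92 ± 0.23, adjusted p = 2.92e-04). These groups were separate as well. The genes pud-3 and pud-4, both known as genes whose proteins rise with altered insulin-like signalling, changed by -1.90 ± 0.36 (adjusted p = 0.00722) and -2.13 ± 0.42 (0.00932). The others were W04A4.2 (-2.67 ± 0.43), D1022.2 (-2.29 ± 0.40), Y18H1A.8 (-2.11 ± 0.34), F54D12.7 (-1.82 ± 0.32), the acid sphingomyelinase gene asm-3 (-1.77 ± 0.36) and clec-86. Signals with spg-7 RNAi averaged below the level of the filter for 7 of the 12. With 32 added the changes were -2.18 for W04A4.2, -1.77 for D1022.2, -1.72 for D2096.5, -1.57 for Y18H1A.8, -1.50 for oac-20, -1.41 for F54D12.7 and -1.39 for asm-3.

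Among groups with more falls than rises were the abu and pqn genes, for glutamine- and asparagine-rich secreted proteins. Of these 6 of 50 were lower (12%, against 1.93% of all genes) and none higher, with a median of -0.24. Their count of falls was 3 without control replicate 2 of wild type and 10 without control replicate 3 of the mutant, and after scaling to the hybridisation controls 17 were lower, with a median of -0.75. The largest changes among the abu genes were those of abu-15 (-1.44 ± 0.31, adjusted p = 0.0147) and abu-6 (-1.30 ± 0.28, 0.0167). Of 24 genes of one-carbon, methionine and hydrogen sulfide metabolism 4 were lower (16.7%) and 1 higher (4.17%). Without control replicate 1 of wild type, 7 of these were lower, and without control replicate 2 of wild type, 1 was. After scaling to the hybridisation controls 9 were lower and none higher. The S-adenosylmethionine synthetase gene sams-2 fell by 1.06 on the log2 scale (SE 0.20, adjusted p = 0.00684). Of 115 cuticle collagens only col-149 was called (-1.51 ± 0.29, adjusted p = 0.0092), although 100 had a negative difference and the median was -0.46, which was -0.97 in wild type and 0.06 in the mutant. Collagens called lower numbered 11 without control replicate 3 of the mutant, and 44 after scaling to the hybridisation controls, where the median was -0.96.

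Markers of tissues moved with the RNAi label as well, and their part in the changes above was not tested. Of 24 body wall muscle markers 3 were lower and none higher, with a median of -0.37, and their median log2 signal was 13.01 to 13.39 in wild type under control RNAi and 12.27 to 12.96 with spg-7 RNAi, and 13.18 to 13.34 against 12.91 to 13.13 in the mutant. By summed signal the RNAi arms of these markers overlapped within each genotype. Wild-type sums were 187000 to 272000 (control) and 126000 to 207000 (spg-7), and mutant sums 181000 to 221000 and 183000 to 212000. The troponin T gene mup-2 fell by 0.88 on the log2 scale (SE 0.17, adjusted p = 0.00932). Without control replicate 2 of wild type, 1 muscle marker was called, and 12 were lower with the oocyte and eggshell level as a covariate. After scaling to the hybridisation controls 19 of the 24 were lower, with a median of -0.88. Of 14 intestine markers 2 were higher (14.3%, against 4.81% of all genes) and none lower. Their median of 0.43 became -0.08 after scaling to the hybridisation controls. The gut esterase gene ges-1 rose by 1.40 ± 0.26 (adjusted p = 0.00714), and elt-7, for a gut transcription factor, by 0.86 ± 0.23 (adjusted p = 0.0415), which 9 of the 12 arrays could each end by being left out. Both calls were lost after scaling to the hybridisation controls, and that of elt-7 also with no filter and with the replicate number as a block. In the fit with that block, as without control replicate 2 of wild type, 1 gut marker was called. The summed signal of the intestine markers was 71600 to 108000 over the control arrays and 77200 to 154000 over the spg-7 RNAi arrays. No vitellogenin (5), sperm (66), oocyte and eggshell (28) or hypodermis (10) gene was called. The medians in wild type and mutant were 1.95 and -1.19 for vitellogenins and 0.29 and -1.01 for oocyte and eggshell genes. They were -0.77 and 0.51 for hypodermis genes and -0.35 and -0.47 for sperm genes. Except for sperm genes, the average over both genotypes thus joins medians of opposite sign. The median of the sperm genes was -0.43, and 27 of the 66 were called lower without control replicate 1 of wild type. Without that array and spg-7 RNAi replicate 3 of wild type together 27 were lower as well, with a median of -0.81. All 21 germ line genes had a negative difference (median -0.45), and 1 was called lower (4.76%, against 1.93% of all genes). That gene, the Vasa family helicase gene glh-1, fell by 0.81 (SE 0.18, adjusted p = 0.0207). Its call was lost without control replicate 2 of wild type, control replicate 1 of the mutant or spg-7 RNAi replicate 2 of the mutant (adjusted p up to 0.0566). No tissue list had a member at 0 (the lowest signal was 2.01), and the summed vitellogenin signal ranged from 878 to 114000.

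**Figure D4:**
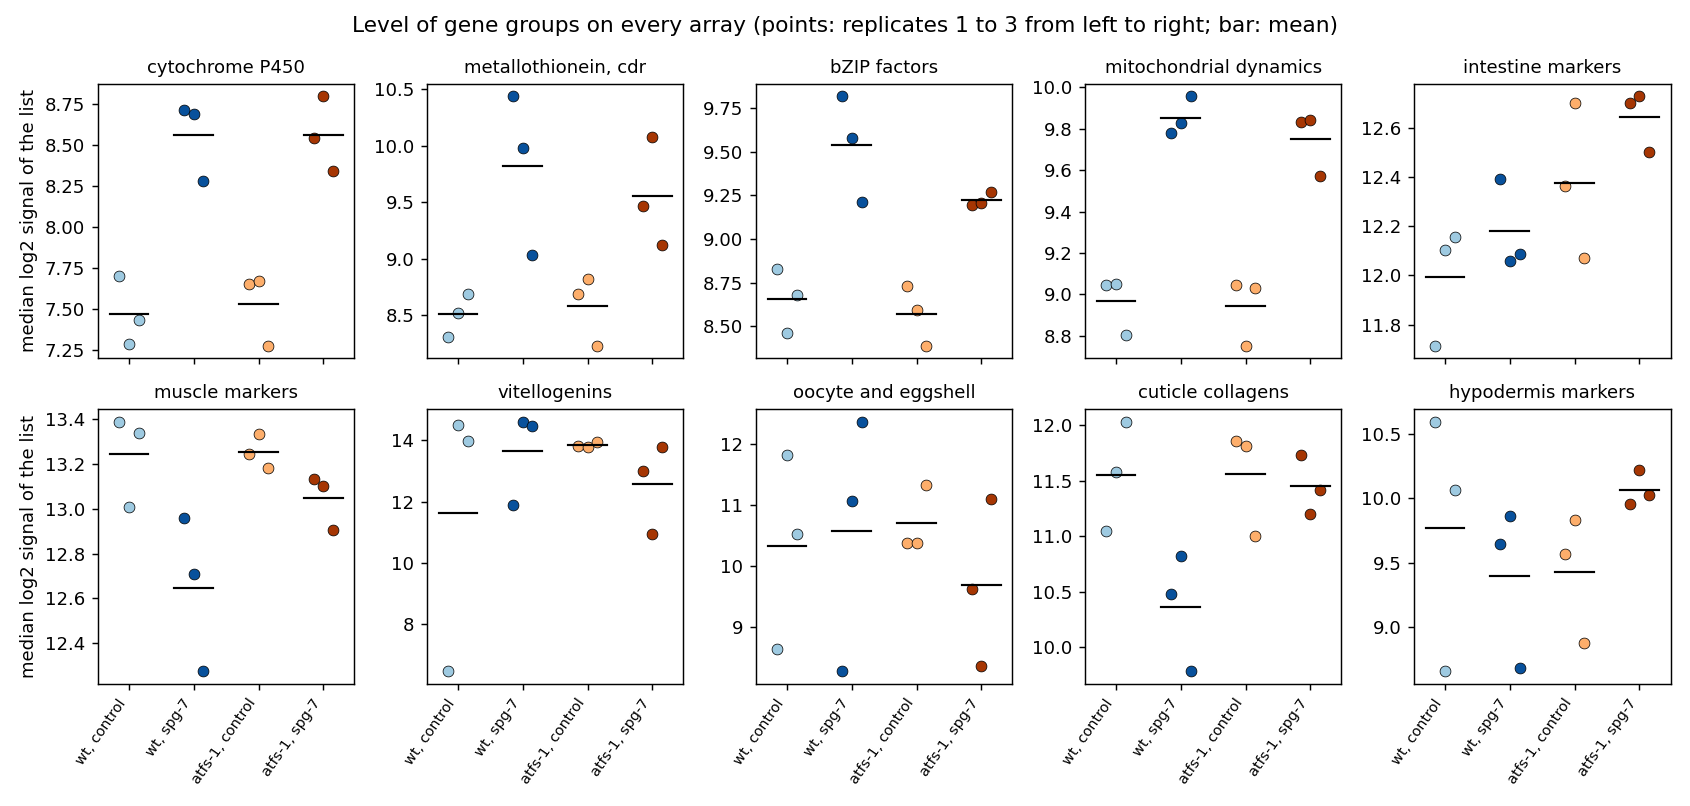
Median log2 signal of 10 gene groups on every array, with points for replicates and bars for means. P450, metal-responsive, bZIP and mitochondrial dynamics genes are higher on all spg-7 RNAi arrays than on the controls of their genotype, muscle markers are lower on all of them, and vitellogenins, at 6.46 on control replicate 1 of wild type, vary within groups. Relative to the hybridisation controls the median change of bZIP and dynamics genes was below 0.

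The common response was also read in each genotype. All 699 called genes had the same sign in wild type and mutant, which a fit over both favours. Of the 499 rises 410 had groups that did not overlap in either genotype, and of the 200 falls 128 did. The fit chose these genes on the same arrays and favours such separation too, so these counts are descriptions. Over all genes tested, the called ones included, 4.96% and 2.3% separated upward and downward in this way. In the model with all 4 groups, for wild type 342 genes were called higher (3.29% of genes) and 149 lower (1.43%), 4.73% together, and for the mutant 98 (0.944%) and 23 (0.221%), 1.17% together. Of these, 87 were called higher and 5 lower in both genotypes, 18.7% of the wild-type calls and 76% of the mutant calls, and none in opposite directions. The fit over both genotypes called 206 rises and 113 falls that neither genotype passed by itself. The median rise was 1.36 in wild type and 1.00 in the mutant, and the median fall -1.14 and -0.83.

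The genotypes share no array, so genes chosen in one could be read in the other. Fitted by itself, wild type called 75 genes higher (0.722% of genes), of which 74 were positive in the mutant, with a median of 3.03 in wild type and 2.01 in the mutant, where 48.7% of all genes were positive. Of these 75, 70 did not overlap in the mutant, where 13.1% of all genes separated upward. The mutant arrays alone called 202 genes higher (1.95%), of which 184 were positive in wild type, with a median of 1.67 in the mutant and 1.77 in wild type, where 46.9% of all genes were positive. Of these 202, 158 did not overlap in wild type (78.2% against 9.99% of all genes). Each pair of same-numbered mutant arrays deviated together, and with the replicate number as a block the mutant arrays alone called 641 genes higher and 528 lower. The 118 genes lower in the mutant alone (1.14%) had a median of -2.42 there and -0.89 in wild type, where 106 were negative (53.1% of all genes were) and 26 did not overlap (22% against 8.48% of all genes). Wild type alone called 9 genes lower (0.0867%), and 8 were negative in the mutant, as were 51.3% of all genes. Across all genes Pearson's r between the responses was 0.415, a description over genes, which are not independent replicates.

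No gene passed the test of a difference between the 2 responses (limma, 0% of genes), though 647 (6.23%) had an unadjusted p under 0.05 and the smallest adjusted p was 0.21. The median SE of the difference was 0.513 on the log2 scale, so small differences were not detectable. Large ones also went uncalled, such as -3.34 for slc-17.3 (limma, adjusted p = 0.21) and -3.12 for clec-17 (0.727). The lack of calls therefore does not show that the responses were equal. The smallest p belonged to cyp-14A4, with a response smaller by 3.89 ± 0.64 in the mutant, which was the single gene called (adjusted p = 0.0279) when 32 was added to the signals. Next in order of p were Y58A7A.5 (2.77 in wild type and 0.65 in the mutant), inx-9, for a gap junction protein (-1.04 in the mutant, a difference of -2.64), nhr-61 (3.02 in wild type and 0.90 in the mutant) and slc-17.3, for a transporter (3.56 and 0.23). Without spg-7 RNAi replicate 3 of wild type, slc-17.3 was called (adjusted p = 0.0453). Among the 15 largest rises the mutant minus wild-type difference was above 0 for spg-7 (1.27), F57B9.3 (1.04), tbb-6 (0.46) and cyp-13A5 (0.24). It was -0.07 for C08E8.4, -0.06 for clc-11, -0.26 for ZK177.9, -0.51 for Y37H2A.14 and -0.87 for Y41C4A.32. It was -1.42 for ugt-19, -1.52 for cyp-13A8, -1.98 for cyp-33C8, -2.55 for R08F11.4 and -3.12 for clec-17.

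**Figure D5:**
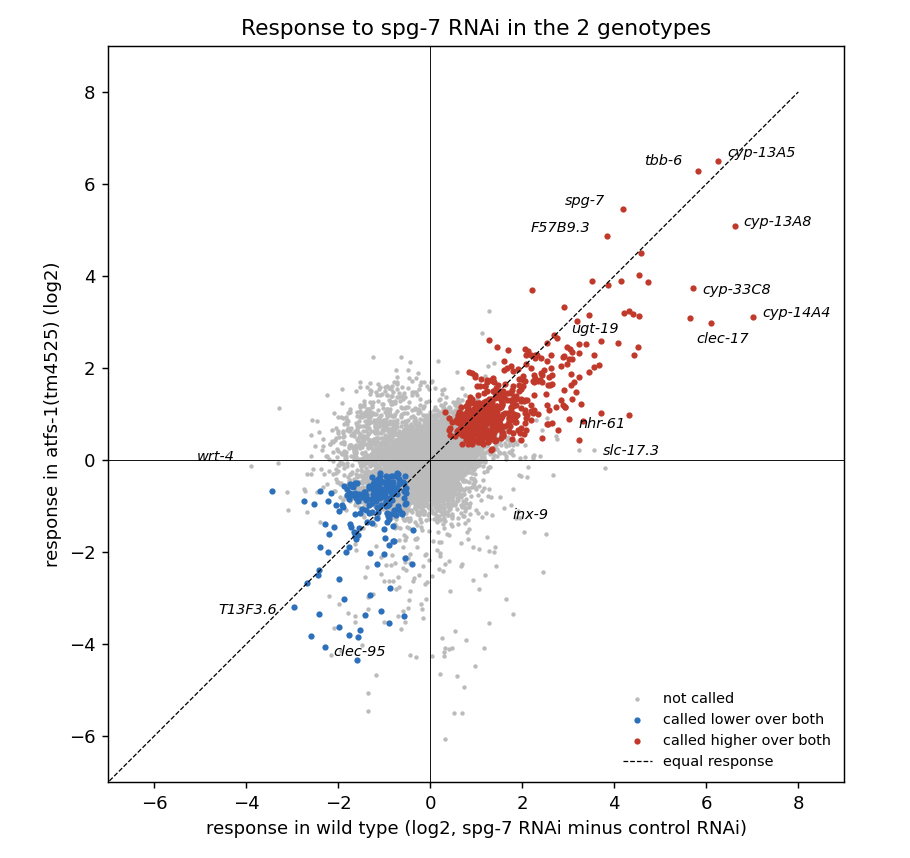
Response to spg-7 RNAi in the mutant against the response in wild type (log2, spg-7 RNAi minus control RNAi), 1 point per gene, with a dashed line for equal responses. Genes called over both genotypes lie in the upper right (499) and lower left (200). The gene tbb-6 is near the line, at 5.82 and 6.29, and cyp-14A4 lies below it at 7.01 and 3.12.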

How the data were processed

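Per the labels' protocols, biotin-labelled cRNA from whole worms was hybridised to Affymetrix arrays, 1 per sample. The values are probe-set signal intensities on a linear scale as deposited by the authors. MAS5 made them, per the submitters' processing notes, which give no version. Its settings and the detection calls were not given in the sources used here, so no probe set could be classed as above or below background. The 77 control probe sets were set aside, signals were floored at 1 (0.509% of values) and taken to log2, and the lowest 40% of probe sets by mean log2 signal were left out (level 6.25, signal 76.0). Each gene was represented by its brightest remaining probe set with a single gene symbol in the array annotation. This gave 10385 genes, 3250 of them measured through probe sets marked s and 463 through those marked x, which can bind transcripts of more than 1 gene.

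limma 3.58.1 (R 4.3.3, with version 1.17.8 of data.table) fitted an additive model of genotype and RNAi to all arrays, moderating variances along a trend (9 residual and a median of 3.64 prior degrees of freedom). A model with 1 mean per group gave the response of each genotype and their difference, and each genotype was also fitted alone. The threshold for a call was an adjusted p (Benjamini-Hochberg over all genes) under 0.05. Adjusted p values are limma's, and values after ± are standard errors from the model. The number of arrays limits the precision. By their deviations from the group means, same-numbered control and spg-7 RNAi arrays correlated in the mutant (3 pairs, 0.286 to 0.525). The 6 other mutant pairs gave -0.42 to 0.147. Not every same-numbered pair of wild type correlated (-0.101 to 0.577). Deviations cancel within a group, so high values of same-numbered pairs lower the others, and these ranges are not independent. RNA quality ratios were compared by exact permutation within genotypes. In a test on simulated data (5 runs, 200 of the 10385 genes changed), 46.1%, 85.5% and 96.3% of 2-, 4- and 8-fold changes over both genotypes were called, and 5.29% of calls were false. Whether these rates hold for the arrays of the series, some of which deviated together, was not tested.

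Named were the targeted gene, the mutated factor and both chaperone reporters, the 15 largest rises and 12 largest falls with separate groups in both genotypes, the 5 smallest other p values, and up to 4 members per list. Members called beyond that rule (cyp-13A6, cyp-35C1, ugt-26, ugt-31, lgg-2, nhr-8, nhr-57, clec-265), the uncalled mtl-2 and the genes ranked by the difference between responses were chosen after their values were seen. The 49 gene lists, by name and family, were chosen with earlier results of these data known. No list was tested as a set. The alternatives were 3 scalings between arrays, an added 32, other filters, probe sets, variance models, thresholds and array weights, the replicate number as a block, the oocyte level as a covariate, and leaving out arrays. Plots were made in Python 3.11.15 with matplotlib 3.10.9. No sequences are shown.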

Additional observations from a re-analysis of the deposited data

How the results depend on the processing

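The counts depended on scaling, on arrays and on the threshold more than the named large changes did. Scaled to the hybridisation controls, 116 genes were higher and 1013 lower over both genotypes, 136 were higher in wild type and 13 in the mutant. Array weights, whose fit did not fully converge, gave 1047 higher and 880 lower over both, 915 and 870 in wild type, 888 and 644 in the mutant, and 96 for the difference between responses. The oocyte and eggshell level as a covariate gave 773 and 556 over both, 739 and 617 in wild type, and 60 lower in the mutant. Without control replicate 1 of wild type and spg-7 RNAi replicate 3 of wild type together, the counts were 956 and 994 over both, 670 and 557 in wild type, and 162 and 85 in the mutant. An adjusted p under 0.01 gave 215 and 37, 137 and 17, and 43 and 5, and a minimum of 2-fold 330 and 106 over both. Leaving out the lowest 60% of probe sets gave 130 lower over both and 3 in the mutant. With 32 added, 49 genes were lower in the mutant and the difference was called for 1 gene. Each genotype fitted alone gave 75 and 9 in wild type and 202 and 118 in the mutant. Without 1 array, 306 to 679 genes were higher and 67 to 871 lower over both, 162 to 486 and 31 to 635 in wild type, 39 to 122 and 5 to 71 in the mutant, and 0 to 1 for the difference. Quantile normalisation, no filter, plain probe sets, no variance trend and 1 mean per group kept the counts over both genotypes within 1.5 times, as did median centring. Over all groups the replicate numbers did not pair the arrays (11 of 18 same-number correlations over 0.1, from -0.664 to 0.663), and the replicate block gave 497 higher and 181 lower over both, 367 and 165 in wild type and 86 and 20 in the mutant. With the mutant arrays fitted alone, where they did, a replicate block chosen after seeing the data gave 641 and 528. Of the named genes called, 76 kept the call without any 1 array, and many others lost it in at least 1 of those fits. Under every other alternative with the 0.05 threshold and no minimum fold, 71 kept it wherever they were tested. Some of these, cyp-13A5 among them, were not tested with the lowest 60% of probe sets left out, so that fit could not end their call. None of the named genes called changed direction under any alternative. Among those not called, hsp-6 turned to -0.17 after scaling to the hybridisation controls and vit-2 to -0.067 without the 2 arrays. The causes were not tested.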

Other observations

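The position of the called genes was looked at after their values were seen. Of 1879 genes measured on chromosome V 163 were called higher (8.67%), against 2.65% on I, 3.95% on II, 4.09% on III, 3.65% on IV and 5.86% on X, while falls made up 1.44% to 2.02% on each of the 6 chromosomes. Chromosome V carries many members of the receptor, lectin and F-box families of the worm. Of 492 higher genes with a position 105 (21.3%) had a next measured neighbour that was also called higher, against 8.49% of the other genes, and of 188 lower genes 25 (13.3%) had a lower neighbour, against 3.44%. Gene order was taken from the RefSeq annotation WBcel235. Runs of called neighbours included cyp-13A5, cyp-13A6 and cyp-13A8 on II, R08E5.1, rips-1, cysl-3, cyp-33C8 and R08F11.4 on V, nhr-228, nhr-115 and nhr-226 on V, and clec-136, clec-137 and clec-138, all lower, on II. Probe sets of near-identical neighbours can share transcripts, and the part of that in these counts was not tested.

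Transcripts encoded by mitochondrial DNA all had positive differences, 8 of 8 genes measured, from 0.29 (ND4) to 0.54 (COX2), and none was called (adjusted p 0.129 to 0.545). With the shift of all genes from -0.05 to -0.56 under scaling to the hybridisation controls, most of these differences turned negative.

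Several small families looked at after their values were seen held a high share of calls with the signals as deposited. Over all genes 4.81% were called higher and 1.93% lower. All 4 nspb genes, named as nematode-specific peptides, were lower (median -1.38), as were 3 of 4 sams genes for S-adenosylmethionine synthetases. Of 11 skr genes, for Skp1-related ubiquitin ligase subunits, 3 were higher, and of 21 cest genes, for carboxylesterases, 4 were higher.

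The genes called higher were dimmer under control RNAi (median signal 313) than all genes tested (428), and those called lower were brighter (544). Control signal averaged below the filter level for 51 of the 499 higher genes, 10.2%, and the spg-7 RNAi signal did so for 34 of the 200 lower genes, 17%.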
